A study of Mus musculus with 8 samples.

Results

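Chemokine ligands were compared between ovarian tumours of Nedd9-null and Nedd9-WT mice. They were taken by name: the 36 genes on the array whose symbol starts with Ccl, Cxcl, Xcl or Cx3cl followed by a number, with 1 gene of that form left out by the rule, out of 31709 named genes. Each was read by its brightest probe, and 29 of the 36 were clearly detected (a probe well above background in 3 or more tumours of a genotype) and entered the test, beside 25536 genes in all. RNA came from 8 spontaneous tumours, 1 per female mouse, 4 Nedd9-null and 4 Nedd9-WT. All 8 mice were untreated C57BL/6J animals with the TgMISIIR-TAg transgene, which drives the T antigen of the virus SV40 from the promoter of the Müllerian inhibiting substance type II receptor, so both groups carry the oncogene and differ by the labelled Nedd9 genotype of the mouse. The labels give no age and differ on tumour size: mice were killed after the tumour reached 2000 mm3 in one text and the burden is below that volume in another.

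Chemokines are small secreted proteins that bind receptors on leukocytes and other cells and direct their movement. They are grouped by the spacing of their first cysteines into the CC, CXC, C and CX3C classes. CXC chemokines with an ELR motif act through Cxcr2 and recruit neutrophils, the Ccr2 ligands recruit monocytes, Ccl3, Ccl4, Ccl5, Ccl6 and Ccl9 act on monocytes and other leukocytes, and homeostatic members such as Cxcl12, Cxcl13, Ccl19 and Ccl21a place cells in tissues. In ovarian tumours they are made by tumour cells, stroma and the leukocytes themselves. In bulk tissue a lower level can come from fewer cells of a type or from less RNA per cell, and these cannot be told apart here.

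A level is the log2 processed signal of a probe minus the 75th percentile of its array, and a difference is the Nedd9-null mean minus the Nedd9-WT mean on that scale, so 1 unit is a factor of 2. Levels of different genes are not compared, because each rests on its own probe. Nedd9 itself had processed signals of 217 to 601 in the Nedd9-null tumours and 5694 to 10681 in the Nedd9-WT tumours. Nedd9-null replicate 1 stood apart from its group: over all genes it correlated at 0.886 to 0.920 with the other Nedd9-null arrays and at 0.938 to 0.973 with the Nedd9-WT arrays. Results that rest on it are therefore given with and without it. That tumour was picked out after these same values were seen, for its likeness to Nedd9-WT. The p-values without it are thus descriptive only. Each genotype lay on a slide and a scan of its own, so slide and genotype cannot be told apart. Between 73.0% and 84.6% of probes were well above background per array. Of markers of the tissue, all 7 ovarian follicle and steroid cell genes and all 7 epithelial genes passed the filter; the mean level of the follicle list against the Nedd9-WT mean was -0.75 to 0.87 in Nedd9-WT tumours and -0.98, -3.12, -6.18 and -6.14 in Nedd9-null replicates 1 to 4.

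Over all 8 arrays no chemokine ligand passed the test: 0 of 29 had an adjusted p under 0.05 in limma, against 17 of 25536 genes, or 0.0666%, and the smallest adjusted p among the ligands was 0.080. At an unadjusted p under 0.05 there were 6 of 29 (20.7%), against a background of 23.9%. Differences were positive for 21 ligands (72.4%) and negative for 8, against 52.2% positive over all genes, and without Nedd9-null replicate 1 for 15 and 14. Over 8 arrays they had a median of 0.24 against 0.03 over all genes. The median was 0.02 without Nedd9-null replicate 1 (all genes -0.07), 0.06 without Nedd9-null replicate 2 and 0.61 without Nedd9-null replicate 3, so it turned on single tumours. The 4 levels of one genotype did not overlap those of the other for 2 ligands (6.90%), against 12.7% of all genes. These were Ccl28, higher in Nedd9-null (background 7.16% in that direction), and Ccl25, lower (background 5.58%). This count moved with single tumours and scaling, and the share of all genes moved too. The count was 8 (27.6%, against 34.4% of all genes) when Nedd9-null replicate 1 was left out. On omitting Nedd9-WT replicates 1, 3 and 4 in turn it was 5 (17.2%, against 19.29%), 4 (13.8%, against 16.97%) and 3 (10.3%, against 18.34%). With normexp it was 4 (13.8%, against 12.45%). With quantile scaling and in the authors' deposited values it was 1 (3.45%, against 13.04% and 13.25%). With the filter on all 8 arrays it was 1 (4.17%, against 12.56%). Among these settings, the ligands' share was above that of all genes only with normexp. Without Nedd9-null replicate 1, 5 of 29 ligands (17.2%) passed, all higher in the Nedd9-null tumours, namely Ccl1, Ccl28, Cx3cl1, Cxcl16 and Cxcl17. The background in that fit was 18.7% (4771 genes), so the ligands' share was near that of all genes. Because the tumour left out was chosen from these same values, passing in that fit is no separate support. Ccl1 and Ccl28 entered the test only through the Nedd9-null tumours, so their direction was tied to the filter.

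**Figure D1:**
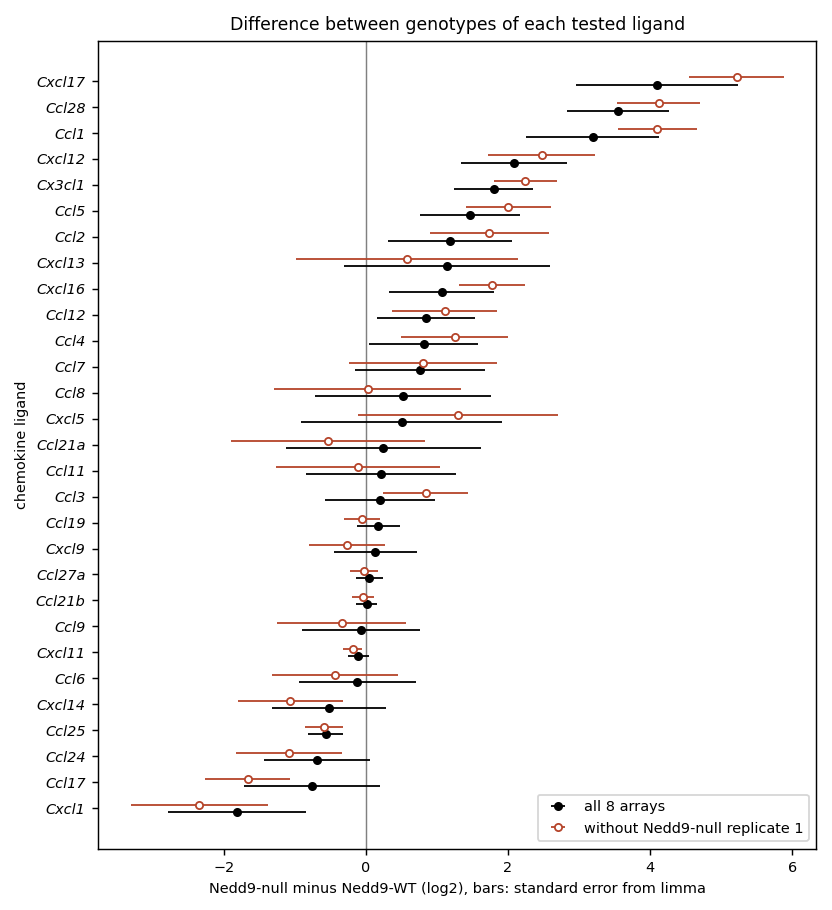
Difference between genotypes for the 29 tested ligands, as the Nedd9-null minus the Nedd9-WT mean of log2 levels (horizontal axis), with the standard error from limma as bars. Filled points use all 8 arrays and open points leave out Nedd9-null replicate 1; Cxcl17, Ccl28 and Ccl1 lie farthest to the right, at 4.09, 3.55 and 3.19 over 8 arrays, and Cxcl1 farthest to the left, at -1.82.

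The ligands were more variable between tumours than most genes. The median standard deviation within a genotype was 1.43 among Nedd9-null and 0.87 among Nedd9-WT tumours for the 29 ligands, against 0.38 in each for all genes tested. With normexp background correction, which draws dim values together, these medians were 1.08 and 0.55 for the ligands and 0.31 and 0.27 for all genes. Nedd9-null replicate 2 had the highest level of all 8 arrays for 13 of the 29 ligands (44.8%), while it was the highest array for 5.85% of all genes. Nedd9-WT replicate 2 was the lowest array for 9 ligands (31.0%), against 17.97% of all genes.

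**Figure D2:**
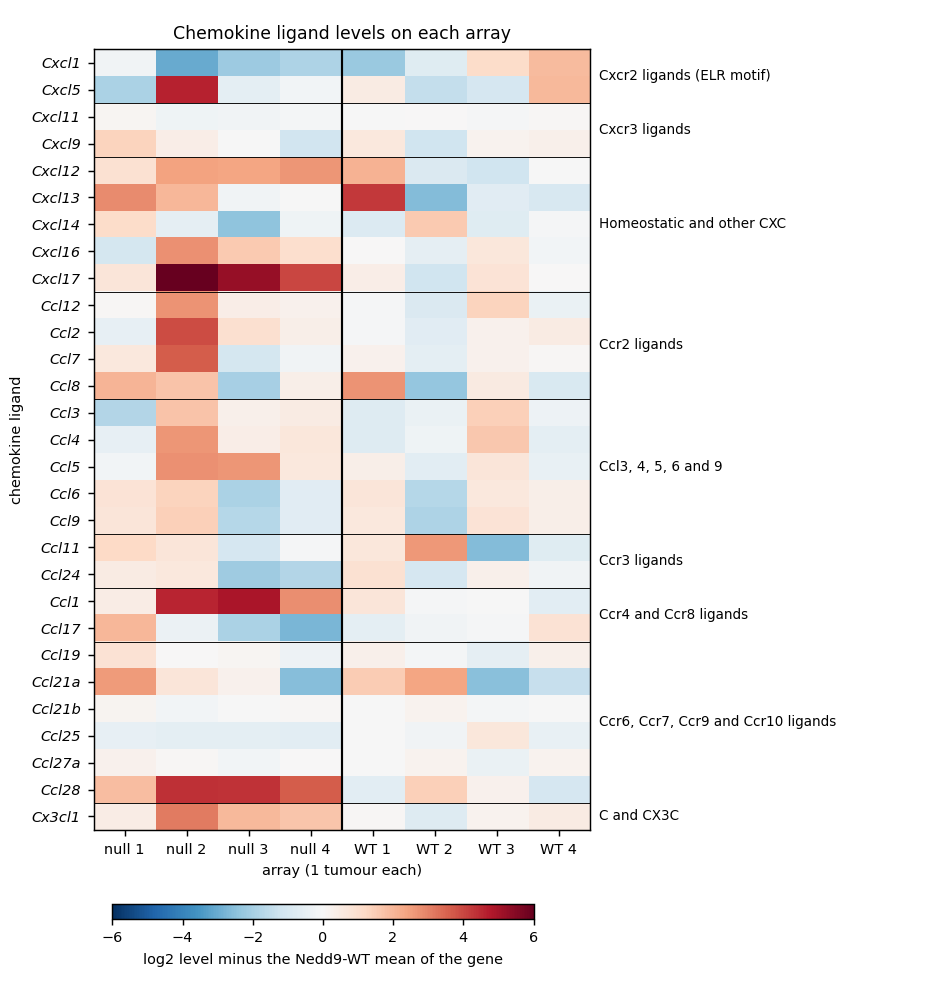
Level of the 29 tested ligands on each array as the log2 level minus the gene's Nedd9-WT mean (colour), with 1 column per tumour, Nedd9-null left and Nedd9-WT right of the line, and ligands grouped by receptor or by name. The column of Nedd9-null replicate 2 holds the highest value for 13 ligands, and the Cxcl17, Ccl28 and Ccl1 squares are dark in Nedd9-null replicates 2 to 4.

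Ccl28, a mucosal epithelial chemokine that binds Ccr10 and Ccr3, was the ligand with the smallest p. Its levels were -6.96, -4.41, -4.46 and -5.16 in Nedd9-null replicates 1 to 4 and -9.44, -7.36, -8.56 and -9.82 in Nedd9-WT replicates 1 to 4. All Nedd9-null tumours lay above all Nedd9-WT tumours, with replicate 1 closest to them. The probe (chr13_random:362589-362648 on mm9) was well above background in all 4 Nedd9-null tumours and in 0 of 4 Nedd9-WT tumours, with processed signals of 19.4 to 162 and of 3.27 to 19.4. Set against the lowest signal that counts as above background, the Nedd9-null level of Ccl28 was at least 4.80-fold higher on this scale; for a probe at background in one group, that bound takes the mean of the bright group against the higher, per array, of the lowest signal well above background and the probe's own. The fitted difference was 3.55 (SE 0.72, adjusted p = 0.080 in limma, 4 against 4), and 4.12 (SE 0.58, adjusted p = 0.0038) without Nedd9-null replicate 1. It was 1.05 with normexp background correction and 1.28 in the authors' deposited log2 values, both below that bound. The size of the difference is therefore uncertain at these low signals, while it was positive in all 16 alternatives that gave a value. Ccl28 passed the filter only through the Nedd9-null tumours, so this direction is no separate support.

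Ccl1, a ligand of Ccr8 that acts on regulatory and type 2 helper T cells, showed a like detection pattern. Its levels were -8.06, -3.92, -3.60 and -5.71 in the Nedd9-null and -7.80, -8.57, -8.53 and -9.14 in the Nedd9-WT tumours, replicates 1 to 4. Nedd9-null replicate 1 lay among the Nedd9-WT tumours, and the other 3 were higher than all of these. The probe (chr11:81990168-81990227 on mm9) was well above background in Nedd9-null replicates 2 to 4 and in none of the Nedd9-WT tumours, and Nedd9-null replicate 1 had a signal of 9.09. On this scale the same calculation gives 4.56-fold over all 4 arrays of each genotype, that tumour included. Because that tumour was itself not well above background, this value is not a strict lower bound. The difference was 3.19 (SE 0.93, adjusted p = 0.11 in limma) and, without Nedd9-null replicate 1, 4.10 (SE 0.55, adjusted p = 0.0031). With normexp correction it was 1.22, and in the authors' deposited log2 values it was 1.48, both below that 4.56-fold value, so its size is uncertain too. Ccl1 likewise passed the filter only through the Nedd9-null tumours. Its receptor Ccr8 was higher by 0.48 (SE 0.19, adjusted p = 0.19 in limma), with no overlap between genotypes. That was so for 1 of 15 tested receptors (6.67%), near the 7.16% of all genes that were higher without overlap.

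Cxcl17, a chemokine of mucosal surfaces, had the widest range of the tested ligands. Its levels were -5.72, -0.04, -1.21 and -2.43 in Nedd9-null replicates 1 to 4 and -6.05, -7.65, -5.64 and -6.44 in Nedd9-WT replicates 1 to 4. Nedd9-null replicates 2 to 4 were above every Nedd9-WT tumour, and replicate 1 was among them. In processed signal the 3 high tumours read 3342, 1404 and 658, and the other 5 read 15.8 to 58.7 (probe at chr7:26185079-26185138 on mm9). The difference was 4.09 (SE 1.14, adjusted p = 0.11 in limma), and 5.22 (SE 0.66, adjusted p = 0.0024) without Nedd9-null replicate 1.

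Cx3cl1 and Cxcl16 are the members made as transmembrane proteins, which hold cells bearing Cx3cr1 or Cxcr6 at the membrane and are shed by the proteases Adam10 and Adam17. Cx3cl1 levels were 0.47, 3.14, 1.96 and 1.66 in the Nedd9-null and 0.07, -0.78, 0.24 and 0.51 in the Nedd9-WT tumours (probe at chr8:97306185-97306244 on mm9). Nedd9-null replicate 1 was just below the highest Nedd9-WT tumour, and the other 3 were above all of them. The difference was 1.80 (SE 0.55, adjusted p = 0.12 in limma) over 8 arrays and 2.24 (SE 0.44, adjusted p = 0.014) without Nedd9-null replicate 1. Cxcl16 levels were -2.79, 1.00, -0.19 and -0.73 in the Nedd9-null and -1.74, -2.26, -1.05 and -1.92 in the Nedd9-WT tumours (probe at chr11:70267780-70267839 on mm9). Nedd9-null replicate 1 was the lowest of all 8 tumours and the other 3 Nedd9-null tumours were the highest. The difference was 1.07 (SE 0.74, adjusted p = 0.42) over 8 arrays and 1.77 (SE 0.46, adjusted p = 0.038) without that tumour. Cx3cr1 and Cxcr6 differed by 0.35 (SE 0.59, adjusted p = 0.76) and 0.05 (SE 0.30, adjusted p = 0.94), Adam10 by -0.70 (SE 0.33, adjusted p = 0.24) and Adam17 by -0.18 (SE 0.24, adjusted p = 0.69).

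Nedd9-null replicates 2 to 4, in which each of these 5 ligands was above all Nedd9-WT tumours, also had the highest mean levels of the epithelial and ciliated cell lists. The mean level of the 6 ciliated oviduct genes, relative to Nedd9-WT, was 2.03, 6.37, 6.93 and 7.08 in Nedd9-null replicates 1 to 4 and -1.30 to 2.20 in Nedd9-WT. That of the 7 epithelial genes was -0.94, 2.31, 2.21 and 1.23, against -0.63 to 0.46. All 6 and all 7 genes of these lists passed the filter. Single epithelial genes differed: Krt8, Krt7 and Cldn7 followed the list mean, but Cdh1 was highest in Nedd9-WT replicate 2, at 0.11, and Grhl2 in Nedd9-null replicate 1, at -3.15. Epcam in Nedd9-WT replicate 2 (-3.07) and Krt18 in Nedd9-WT replicate 3 (5.42) exceeded Nedd9-null replicate 4 (-3.51 and 4.95). The part of these cells in the ligand differences was not tested.

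Cxcl12, the ligand of Cxcr4 and Ackr3 that holds stem and immune cells in stroma, also read higher in most Nedd9-null tumours. Its levels were -0.72, 0.79, 0.73 and 0.99 in Nedd9-null replicates 1 to 4 and 0.46, -2.52, -2.84 and -1.66 in Nedd9-WT replicates 1 to 4. Nedd9-null replicates 2 to 4 lay above all Nedd9-WT tumours, and Nedd9-null replicate 1 lay between Nedd9-WT replicate 1 and the other Nedd9-WT tumours. The difference was 2.09 (SE 0.75, adjusted p = 0.15 in limma), and 2.48 (SE 0.75, adjusted p = 0.064) without Nedd9-null replicate 1. The other Cxcl12 probe gave 2.97 (SE 0.96). Of its receptors, Cxcr4 differed by -0.71 (SE 0.37, adjusted p = 0.29) and Ackr3 by 0.48 (SE 0.23, adjusted p = 0.25).

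Of the remaining CXC members in this group, Cxcl13, which draws B cells through Cxcr5, ranged from -6.88 to -3.82 in Nedd9-null and from -9.23 to -2.41 in Nedd9-WT tumours, with the highest level in Nedd9-WT replicate 1. Its difference was 1.14 (SE 1.45). Cxcl14, an epithelial chemokine, ranged from -2.36 to 1.17 and from -0.75 to 1.64, with a difference of -0.52 (SE 0.81). Neither passed in limma (adjusted p = 0.67 and 0.74).

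**Figure D3:**
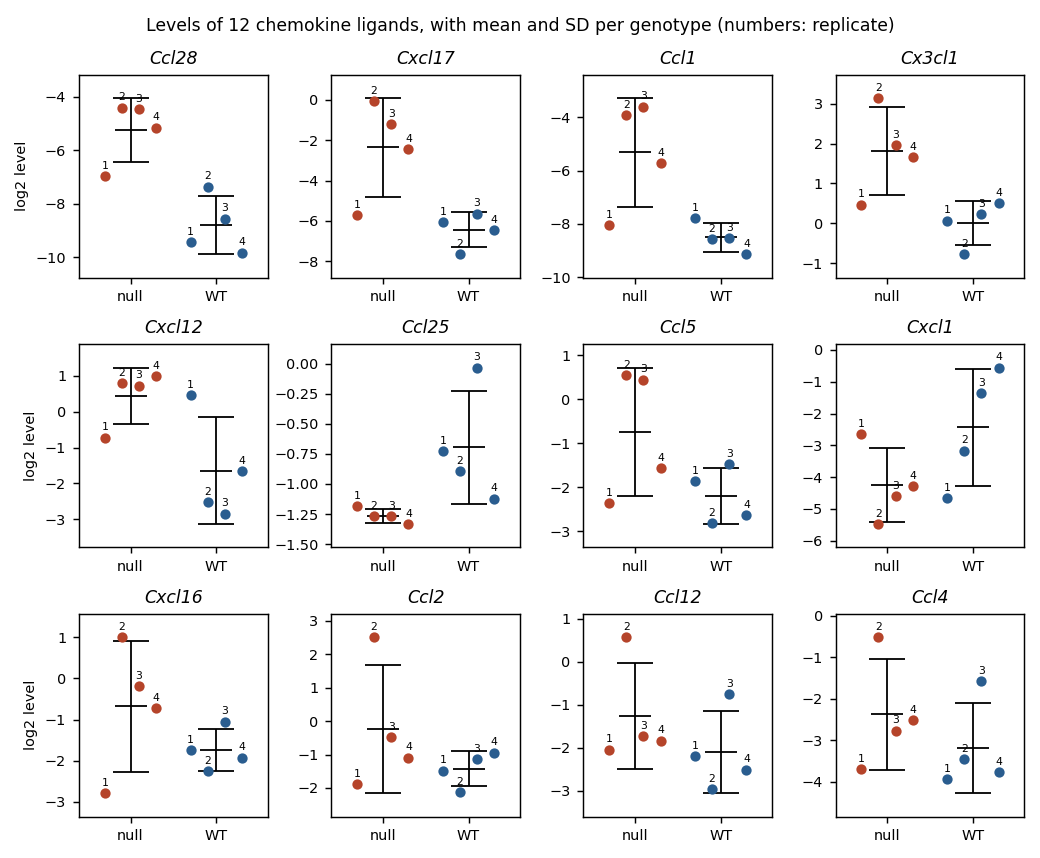
Log2 level of 12 ligands in each tumour (points, numbered by replicate; vertical axes differ between panels), with the mean (short line) and standard deviation (bar) of each genotype, 4 tumours each. Nedd9-null replicate 1 lies at or near the Nedd9-WT tumours for Cxcl17, Ccl1 and Cx3cl1, and Nedd9-null replicate 2 lies alone at the top for Ccl2, at 2.51, and for Ccl12, at 0.57.

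Of the 4 ligands listed here under Ccr2, 3 were highest in Nedd9-null replicate 2, and Ccl8 was not. Ccl2 levels were -1.89, 2.51, -0.48 and -1.09 in the Nedd9-null and -1.48, -2.11, -1.14 and -0.94 in the Nedd9-WT tumours, and those of Ccl12 were -2.04, 0.57, -1.72 and -1.83 in the Nedd9-null and -2.19, -2.96, -0.76 and -2.51 in the Nedd9-WT tumours. For both, Nedd9-null replicate 2 was the highest of 8 and the rest of the genotypes overlapped. Ccl7 read 0.76 in that tumour and -3.92 to -2.25 in the other 7. Ccl8 was highest in Nedd9-WT replicate 1 at 1.21 and lowest in Nedd9-WT replicate 2 at -3.79. The differences were 1.18 (SE 0.88) for Ccl2, 0.85 (SE 0.69) for Ccl12, 0.76 (SE 0.92) for Ccl7 and 0.52 (SE 1.24) for Ccl8, and none passed in limma (adjusted p from 0.45 to 0.84). Without Nedd9-null replicate 2 the difference of Ccl2 was 0.27 and that of Ccl12 was 0.24, while that of Ccl7 turned to -0.21. The receptor Ccr2 differed by 0.40 (SE 0.91).

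Ccl3, Ccl4, Ccl5, Ccl6 and Ccl9, products of leukocytes such as macrophages and T cells, followed the same tumour in part. Ccl5 levels were -2.36, 0.54, 0.44 and -1.57 in Nedd9-null replicates 1 to 4 and -1.86, -2.82, -1.48 and -2.64 in Nedd9-WT replicates 1 to 4. Nedd9-null replicates 2 and 3 lay above all Nedd9-WT tumours and the other Nedd9-null tumours lay among them. The difference of Ccl5 was 1.46 (SE 0.71, adjusted p = 0.25 in limma), and 2.00 (SE 0.59, adjusted p = 0.058) without Nedd9-null replicate 1. Ccl4 levels were -3.69, -0.52, -2.77 and -2.52 in the Nedd9-null and -3.95, -3.46, -1.58 and -3.77 in the Nedd9-WT tumours. Nedd9-null replicate 2 and then Nedd9-WT replicate 3 were the highest for Ccl4 and also for Ccl3, at -2.07 and -2.32. The differences were 0.81 (SE 0.77) for Ccl4 and 0.20 (SE 0.77) for Ccl3. Ccl6 and Ccl9, myeloid chemokines found in mice, differed by -0.12 (SE 0.82) and -0.08 (SE 0.83), each with its lowest Nedd9-WT level in replicate 2. None of these passed in limma (adjusted p from 0.25 to 0.97).

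The ligands of Cxcr2, which draw neutrophils, did not move as one group. Cxcl1 levels were -2.66, -5.46, -4.59 and -4.29 in Nedd9-null replicates 1 to 4 and -4.67, -3.16, -1.35 and -0.55 in Nedd9-WT replicates 1 to 4. Nedd9-null replicate 2 was the lowest of all 8 and Nedd9-WT replicates 3 and 4 were the highest, with the genotypes overlapping. The difference was -1.82 (SE 0.96, adjusted p = 0.29 in limma). Cxcl5 was instead highest in Nedd9-null replicate 2, at 1.42 against -5.09 to -1.28 in the other 7 tumours, and differed by 0.50 (SE 1.42, adjusted p = 0.86). Cxcl2 and Cxcl3 were not tested: each was well above background in Nedd9-null replicate 2, with processed signals of 121 and 136, and in Nedd9-WT replicates 3 and 4, with 63.6 and 62.95 for Cxcl2 and 27.7 and 105 for Cxcl3. In the other 5 tumours both read 3.41 to 11.3. Cxcl1 was therefore at its lowest in a tumour in which Cxcl2, Cxcl3 and Cxcl5 were at their highest.

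The 5 members Cxcl5, Cxcl3, Cxcl15, Cxcl1 and Cxcl2 lie together, within chr5:91190490-91334593 on mm9. The promoters of Cxcl1, Cxcl2 and Cxcl3 hold a motif in common, which is why they are shown. Promoter windows from RefSeq (GRCm38.p6), of 250 bases before to 50 after the start of transcription, were at hand for 25 of the 36 genes, in 28 windows. The NF-kB-like motif GGNNTTTCC was searched on both strands of the whole window. It was in 6 of 28 windows (21.4%), those of Ccl20, Ccl9, Cxcl1, Cxcl2, Cxcl3 and Cxcl9, and in 5.82% of all 32851 windows. In these ligands all matches lay in the 250 upstream bases. The stretches below are the 100 bases before the start, 5′ to 3′ on the gene's strand, with the motif in capitals; they are copied from the windows on GRCm38.p6.
Cxcl1 (chr5:90891145-90891244, plus strand): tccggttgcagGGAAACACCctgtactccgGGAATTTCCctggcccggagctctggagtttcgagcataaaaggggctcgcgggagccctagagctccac
Cxcl2 (chr5:90903799-90903898, plus strand): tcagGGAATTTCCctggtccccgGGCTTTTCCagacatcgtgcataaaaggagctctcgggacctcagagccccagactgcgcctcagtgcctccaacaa
Cxcl3 (chr5:90786001-90786100, plus strand): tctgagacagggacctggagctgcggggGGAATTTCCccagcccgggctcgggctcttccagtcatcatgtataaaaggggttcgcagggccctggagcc
Cxcl9 (chr5:92328080-92328179, minus strand): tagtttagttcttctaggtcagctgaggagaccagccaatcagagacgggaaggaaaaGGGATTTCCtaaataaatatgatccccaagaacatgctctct
The Cxcl1, Cxcl2 and Cxcl3 stretches each hold the run GGAATTTCC, at -70, -96 and -72 from the start, and those of Cxcl1 and Cxcl2 hold another match at -89 and -77. Cxcl9 held matches at -130 and -42, the latter shown. The Cxcl15 window held no match, and Cxcl5 was not among the windows at hand. A match is a description of letters. In Nedd9-null replicate 2 Cxcl1 was at its lowest among the tumours and Cxcl2 at its highest, and both genes hold this run. Any part of the motif in these levels was not tested. The tumour with the highest Cxcl2, Cxcl3 and Cxcl5 also had the highest mean level of 11 tested NF-kB inducers and targets, 1.72 relative to Nedd9-WT against -0.57 to 0.44 in the other 7, and the highest neutrophil marker level, 1.49 against 1.40 in Nedd9-WT replicate 4 and -1.23 to 0.11 in the rest. Their part in the ligand levels was not tested.

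Among the NF-kB inducers and targets, 0 of 11 tested genes passed over 8 arrays, and 8 differences were positive (median 0.24). The smallest p-values were those of Icam1, an adhesion molecule for leukocytes, at 2.02 (SE 0.80), Nfkbiz at 1.37 (SE 0.63), Relb at -0.63 (SE 0.31) and Nfkb2 at -0.66 (SE 0.33), with adjusted p from 0.18 to 0.26 in limma. Icam1 and Nfkbia, the inhibitor of NF-kB, were the 2 of 11 (18.2%) that passed without Nedd9-null replicate 1, near the 18.7% of all genes in that fit. The cytokines Tnf and Il1b differed by 0.23 (SE 0.59) and 0.09 (SE 0.75).

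**Figure D4:**
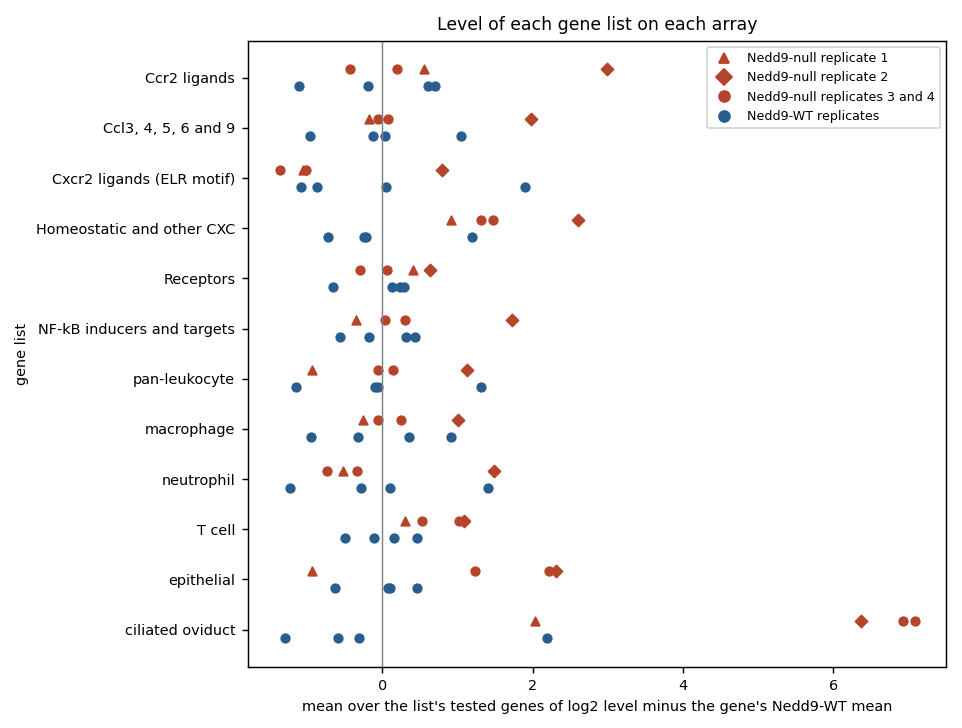
Mean over the tested genes of each list of the log2 level minus the gene's Nedd9-WT mean (horizontal axis), 1 point per tumour, for 4 ligand groups, the receptors, NF-kB genes and cell type markers. Nedd9-null replicate 2 (diamonds) is alone on the right for the Ccr2 ligands, at 2.99, and the NF-kB genes, at 1.72, while Nedd9-null replicates 2 to 4 are together on the right for the ciliated oviduct genes.

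The Cxcr3 ligands, which draw activated T cells and are induced by interferon gamma, had small fitted differences. Cxcl9 ranged from -6.65 to -4.14 in Nedd9-null and from -6.66 to -4.83 in Nedd9-WT tumours, with a difference of 0.13 (SE 0.59, adjusted p = 0.92 in limma) and of 1.59 (SE 0.92) by its other probe. Cxcl11 is listed as a transcribed pseudogene in RefSeq. Its brightest probe read 7.06 to 7.43 on all 8 arrays and differed by -0.11 (SE 0.15), whereas its other probe read 0.80 to 3.44 and differed by 0.33 (SE 0.54), so the probes did not follow each other. Of 6 tested genes of the interferon gamma axis 0 passed. Gbp3 and Gbp2, which are induced by interferons, differed by 1.48 (SE 0.64) and 1.02 (SE 0.47). Without Nedd9-null replicate 1 these 2 of 6 (33.3%) passed, against 18.7% of all genes in that fit, and a share of 6 genes is imprecise. The receptor Cxcr3 differed by 0.85 (SE 0.48, adjusted p = 0.33).

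The Ccr3 ligands, which attract eosinophils, were Ccl11, Ccl24 and Ccl26. Ccl11 ranged from -7.40 to -5.23 in Nedd9-null and from -8.99 to -3.80 in Nedd9-WT tumours, with a difference of 0.21 (SE 1.05), and Ccl24 from -6.73 to -3.99 and from -5.64 to -3.70, with a difference of -0.69 (SE 0.74). Ccl26 was not tested: it was well above background only in Nedd9-WT replicate 3, where its processed signal was 391 against 2.60 to 7.67 in the other 7 tumours. Its neighbour Ccl24, on the same stretch of chromosome 5, was at -4.32 in that tumour, inside the range of the other Nedd9-WT tumours.

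Ccl25, the ligand of Ccr9 that guides T cell precursors and gut lymphocytes, was the other ligand without overlap. Its levels were -1.19, -1.27, -1.27 and -1.33 in Nedd9-null replicates 1 to 4 and -0.73, -0.89, -0.03 and -1.12 in Nedd9-WT replicates 1 to 4. All Nedd9-null tumours were below all Nedd9-WT tumours, and the nearest 2 were 1 tumour of each genotype at -1.19 and -1.12. The difference was -0.57 (SE 0.24, adjusted p = 0.20 in limma), with a probe at chr8:4359916-4359975 on mm9. It was negative in all 17 alternatives, from -0.76 to -0.35. Ccr9 differed by 0.38 (SE 0.46).

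The lymphoid-homing ligands of Ccr7, Ccl19 and Ccl21a, guide T cells and dendritic cells to lymph nodes. Ccl19 ranged from -4.17 to -3.02 in Nedd9-null and from -4.39 to -3.55 in Nedd9-WT tumours, with a difference of 0.17 (SE 0.30). Ccl21a ranged from -5.01 to 0.11 and from -4.96 to -0.11, with a difference of 0.24 (SE 1.38). Ccl21b and Ccl27a, the latter a skin chemokine that binds Ccr10, were steady across tumours, from 1.42 to 1.79 and from 0.88 to 1.54, with differences of 0.01 (SE 0.15) and 0.04 (SE 0.19). The other 3 probes of Ccl27a gave 0.05 (SE 0.22), 0.37 (SE 0.21) and 0.46 (SE 0.21). The Ccl21 and Ccl27 genes have near-identical copies in the mouse, so these probes may read more than 1 gene and are uncertain. Ccr7 differed by 0.41 (SE 0.45).

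Of the Ccr4 ligands, Ccl17, which attracts type 2 helper and regulatory T cells, ranged from -5.50 to -0.76 in Nedd9-null tumours, highest in replicate 1, and from -3.30 to -1.88 in Nedd9-WT tumours. Its difference was -0.76 (SE 0.96, adjusted p = 0.67 in limma) and, without Nedd9-null replicate 1, -1.67 (SE 0.60, adjusted p = 0.10). Cx3cl1 lies beside it, both within chr8:97274709-97335829 on mm9 with Ccl22, and its difference was positive. Ccl22 and Ccl20, a Ccr6 ligand, were below background on all 8 arrays. Xcl1, which attracts cross-presenting dendritic cells through Xcr1, was above background in 2 Nedd9-null tumours, with signals of 48.4 and 24.2, and in none of the Nedd9-WT tumours. Cxcl15, a lung chemokine, was above background in Nedd9-null replicate 1 only, with a signal of 21.5. With Cxcl2, Cxcl3 and Ccl26, these are the 7 ligands that were not tested.

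For the members that passed without Nedd9-null replicate 1 and had a promoter window, the same 100 bases are shown for comparison with the Cxcr2 ligands, with capitals for the interferon response motif GAAANNGAA.
Ccl1 (chr11:82179813-82179912, minus strand): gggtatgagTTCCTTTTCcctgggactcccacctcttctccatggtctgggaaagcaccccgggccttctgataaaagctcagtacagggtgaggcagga
Ccl28 (chr13:119623719-119623818, plus strand): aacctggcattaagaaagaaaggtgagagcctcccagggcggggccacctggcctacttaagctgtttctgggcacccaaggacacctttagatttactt
Cx3cl1 (chr8:94772080-94772179, plus strand): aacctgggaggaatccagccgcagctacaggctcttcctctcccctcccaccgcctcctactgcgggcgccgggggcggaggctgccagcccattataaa
The GGNNTTTCC motif was not in these windows. The motif GAAANNGAA was in 5 of 28 windows (17.9%; 8.56% of all windows), those of Ccl1, Ccl19, Ccl3, Cxcl14 and Cxcl9, and in Ccl1 it lay at -91 on the other strand.

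Members that are neighbours in the genome did not all differ alike. The 6 ligands within chr11:81850650-81990227 on mm9, Ccl2, Ccl7, Ccl11, Ccl12, Ccl8 and Ccl1, all had positive differences over 8 arrays, with a median of 0.80. For 3 of them the sign turned with 1 tumour left out: Ccl7 to -0.21 without Nedd9-null replicate 2, Ccl8 to -0.25 when Nedd9-WT replicate 2 was left out, and Ccl11 to -0.11 on omitting Nedd9-null replicate 1, to -0.65 on omitting Nedd9-WT replicate 3 and to -0.03 on omitting Nedd9-WT replicate 4. Among the 5 within chr11:83339296-83478111, Ccl5, Ccl9, Ccl6, Ccl3 and Ccl4, 3 were positive and 2 negative, with a median of 0.20. Genes counted as neighbours had probes within 250000 bases of the next.

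Of the 18 chemokine receptors 15 were tested, and 0 passed over 8 arrays or without Nedd9-null replicate 1. Differences were positive for 11 of 15 (median 0.35), and the smallest p-values were those of Ccr8, Cxcr4, Cxcr3 and Ccr10, the last at 0.16 (SE 0.17). Among the 5 atypical receptors, which take up chemokines without classical signalling, 0 passed: Ackr2 differed by -1.40 (SE 0.47, adjusted p = 0.14 in limma), Ackr3 by 0.48 (SE 0.23), Ccrl2 by 1.00 (SE 0.55) and Ackr1 by -0.26 (SE 0.45). Of the proteases that trim or shed chemokines, 0 of 7 passed over 8 arrays, with Mmp8, a neutrophil collagenase, at 2.08 (SE 0.99) and Mmp9 at -1.08 (SE 0.86). Dpp4, which clips the start of several chemokines, differed by 1.01 (SE 0.98). Without Nedd9-null replicate 1 it passed at 2.08, as 1 of 7 proteases (14.3%), against 18.7% of all genes in that fit. The platelet chemokines Ppbp and Pf4 and the chemokine-like Cklf, which carry other symbols, differed by -3.00 (SE 1.24), -1.46 (SE 0.87) and -0.33 (SE 0.21), and none passed (adjusted p from 0.19 to 0.39).

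Leukocyte markers were set beside the ligands because leukocytes both make and answer chemokines. Of 52 markers 46 passed the filter; 0 of these passed the test over 8 arrays, 29 differences were positive and the median was 0.10. The mean level of the 5 pan-leukocyte genes relative to Nedd9-WT was -0.94, 1.13, 0.14 and -0.06 in Nedd9-null replicates 1 to 4 and -0.06, -1.15, 1.31 and -0.10 in Nedd9-WT replicates 1 to 4. On these 5 genes Nedd9-null replicate 2, highest for 13 ligands, was thus second to Nedd9-WT replicate 3, and Nedd9-WT replicate 2, lowest for 9 ligands, was the lowest. Over all 46 tested leukocyte markers the mean was highest in Nedd9-null replicate 2, at 0.90, and lowest in Nedd9-WT replicate 2, at -0.72. In the other tumours it was -0.15 to 0.46. The 8 tested macrophage markers gave 1.00 in Nedd9-null replicate 2, 0.92 in Nedd9-WT replicate 3 and -0.95 in Nedd9-WT replicate 2, whereas the Ccr2 ligands gave 2.99, 0.60 and -1.12 in these tumours. The part of leukocyte content in the ligand levels was not tested. T cell markers had a median difference of 0.85 over 7 genes, 5 positive and 2 negative, with Lck at 1.87 (SE 0.58, adjusted p = 0.12 in limma) and Cd8a at 0.85 (SE 0.34, adjusted p = 0.18) but Cd28 at -0.41 (SE 0.28) and Cd4 at -0.01 (SE 0.20). Without Nedd9-null replicate 1, 4 of the 46 leukocyte markers passed (8.70%), against 18.7% of all genes in that fit. These were Lck and Batf3, higher at 2.45 and 1.55, and Zbtb46 and Prg2, lower at -0.94 and -2.31.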

How the data were processed

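RNA of 8 tumours (500 ng each, labelled with Cy3) was read on 1-colour Agilent arrays, 1 array per mouse. Per the file headers and the submitters' processing notes, the deposited spot intensity values were made with Agilent Feature Extraction 9.5.3, background-subtracted within each array and not normalized between arrays. The authors' deposited value table holds log2 values that follow the log2 spot signal (r = 0.9988 to 0.9998 per array) with a common median of 8.24 per column; its background step is unknown, and it served as an alternative. Flags for outlier, control and background are those of the deposited files, and probe coordinates are mm9, per the file headers.

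Control and outlier spots were left out, the log2 processed signal was averaged per probe (39429 probes), and the 75th percentile of each array was subtracted. Probes well above background on 3 or more of 4 arrays of a genotype were kept, with the brightest probe per gene. Genotypes were compared with limma 3.58.1 (R 4.3.3; lmFit and eBayes) over 25536 genes, with Benjamini-Hochberg adjustment at 0.05, and the fit was tested on simulated data. Probe names came from RefSeq by accession or symbol where matched. Arrays are 1 per mouse, and their number limits the precision. The members and gene lists were chosen with earlier results of these data known. Per-tumour values are given for non-overlapping ligands, for those at background in 1 genotype only and for the 12 with the smallest p; companion lists are given by counts and up to 4 genes with the smallest p, and other genes named were picked after their values were seen. The alternatives were normexp background correction, median and quantile scaling, the authors' table, no filter, a filter on all 8 arrays, the mean of probes, array weights, a replicate block and each array left out. A few genes of the companion lists are not reported here.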

Additional observations from a re-analysis of the deposited data

Results flagged for a closer look

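With 4 tumours per genotype, a value was listed here where the gap between the highest or lowest tumour and its nearest neighbour was too large a share of the group's range by Dixon's criterion; chance gives about 1 in 20 groups, and 6 of 92 groups were listed. Ccl12 in Nedd9-null replicate 2 was at 0.57, against -2.04 to -1.72 in the other Nedd9-null tumours. In the same tumour the mean level of Ccl3, Ccl4, Ccl5, Ccl6 and Ccl9 relative to Nedd9-WT was 1.97, against -0.18 to 0.08, and that of the 2 tested Cxcr2 ligands was 0.80, against -1.37 to -1.01. The latter mean joined Cxcl5 at 4.63 and Cxcl1 at -3.03 in that tumour, so it was not a rise of both. Cxcl12 in Nedd9-null replicate 1 was at -0.72, below 0.73 to 0.99 in the others of its genotype. Nedd9-WT replicate 2 was low for Ccl6, at -1.82 against 0.22 to 0.60, and for the mean level of the receptors, at -0.66 against 0.13 to 0.29.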

How the results depend on the processing

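The count of ligands that passed was 0 in every alternative but 2: it was 7 of 29 with array weights (Ccl1, Ccl28, Ccl5, Cx3cl1, Cxcl12, Cxcl16 and Cxcl17; 5984 genes, 23.4%, passed there) and 5 without Nedd9-null replicate 1, so that leaving out 1 array gave 0 to 5. Array weights gave Nedd9-null replicate 1 a weight of 0.23, against 0.51 to 2.31 for the other arrays. These 2 settings therefore both reduce the part of that tumour and are not separate support. At an unadjusted p under 0.05 the count was 3 to 9 over all alternatives. The count over all genes was 22 with normexp, 4 with median and with quantile scaling, 7 with the filter on all 8 arrays, 13 with no filter, 19 in the authors' table, and 0 to 4771 with 1 array left out (the 4771 came from leaving out Nedd9-null replicate 1; omitting Nedd9-WT replicate 1 gave 42 and omitting Nedd9-null replicate 4 gave 2). The ligands' median difference was 0.02 to 0.61 with 1 array left out, 0.05 with median scaling, which shifted the median of all genes to -0.16, and 0.50 with the mean of probes. With the median scale Ccl21b and Cxcl11 were at -0.18 and -0.30; with the mean of probes Cxcl11 was at 0.11. The causes were not tested. Nedd9-null replicate 2 was highest for 10 to 16 ligands over the alternatives that held it, chosen after seeing the data.

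Replicate numbers did not pair the tumours: same-numbered tumours had deviations correlated at -0.05, -0.23, -0.04 and -0.09, and the replicate block gave 0 ligands and 0 genes past the threshold. Signals near background limit the ligands that were above it on few arrays, among them Ccl1, Ccl28, Cxcl2, Cxcl3 and Xcl1.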
